A study of Danio rerio with 18 samples.

Results

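RNA of zebrafish embryos at 24 hours post fertilization (hpf) was compared between embryos injected with anti-mir-34LNA and embryos injected with mockLNA. Each group held 3 arrays, and these 6 arrays are all those of that age among the 18 of the study. Every probe set that is not an AFFX control entered the comparison, which gave 15502 of 15617. Both groups were wild type in genotype and were injected at the 1 to 2 cell stage, kept at one temperature and freed from the chorion by hand before RNA was taken from whole embryos. They differed in the oligonucleotide, and no uninjected group was analysed here. The other 12 arrays held the same pair of injections at 1 and 7 hpf, again with 3 arrays a group. The replicates are labelled as biological, with no number of embryos per sample and no word on the clutches they came from. If replicates shared a clutch, the p-values measure only the spread between these samples, which may be technical.

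A microRNA binds messages that pair with its seed, blocks their translation and shortens their life. A locked nucleic acid (LNA) oligonucleotide pairs tightly with a microRNA and keeps it from its messages, so messages that the microRNA held down can become more abundant. miR-34 is best known in mammals, where p53 induces it and where it lowers messages for cell cycle drivers, Myc proteins, Notch receptors and ligands, and parts of the Wnt pathway. At 24 hpf a zebrafish embryo has formed somites, a beating heart, a brain with its first neurons, an eye with a lens and primitive blood, and the RNA that the mother laid down in the egg has largely been replaced. The arrays used here measure messages, and the level of mature miR-34 was not analysed here.

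All values are log2 signals as deposited, and all differences are anti-mir-34 minus mock on that scale, so a difference of 1 is a 2-fold difference. A difference was called where the limma p, adjusted over all 15502 probe sets by the method of Benjamini and Hochberg, was below 0.05. A difference whose unadjusted limma p alone was below 0.05 is termed nominal and was not called. More than 50% of the probe sets, between 53.3% and 53.4%, had a level below 4 on each of the 6 arrays, where values scatter most. Genes are given by their probe set of highest mean level over the 18 arrays unless a probe set is named.

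The second mock array stood apart from the other 5 arrays before any comparison was made. Its correlation with them over all probe sets was between 0.91 and 0.918 (Pearson's r, across probe sets within pairs of arrays). The anti-mir-34 arrays correlated with each other at 0.936 to 0.944 and with the first mock array at 0.939 to 0.95. The third mock array lay between, at 0.92 to 0.932 with the anti-mir-34 arrays and 0.926 with the first mock array. The genes that set it apart include those of the egg. The list of maternal and germ line genes, with 41 measured, had a median level of 0.64, 1.31 and 1.21 on the 3 anti-mir-34 arrays, against 1.57, 2.93 and 1.09 on the 3 mock arrays. In mock embryos of 1 hpf the same list had a median level of 8.03 ± 0.0984 (SD, n = 3). The second mock array was the highest of the 6 for 28 of these 41 genes (68.3%), and for 1809 of all 8793 genes (20.6%).

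Single maternal genes showed this plainly. h1m, the linker histone of the egg, had levels of -1.38, -0.35 and -0.09 in anti-mir-34 embryos, against -0.68, 5.62 and -0.36 in mock embryos. btg4, an adaptor for the clearance of maternal messages, had levels of -1.0, -0.99 and -0.88 in anti-mir-34 embryos, against -0.88, 5.31 and -0.59 in mock embryos. In both genes 5 arrays lay below 0 and the second mock array alone above 5. org, an oogenesis-related gene, had levels of 2.03, 1.47 and 1.96 in anti-mir-34 embryos, against 1.25, 5.71 and 2.02 in mock embryos. cth1, a zinc finger protein of the early embryo, had levels of 0.43, -0.99 and 1.99 in anti-mir-34 embryos, against -0.35, 5.48 and -0.04 in mock embryos. The growth factor gdf3, which is laid down in the egg and serves mesoderm and left-right patterning, had levels of 0.79, 0.79 and -0.38 in anti-mir-34 embryos, against 1.99, 5.50 and 0.74 in mock embryos. Among the 10 maternal genes with the highest level at 1 hpf, the signal of the second mock array was between 1.06% (buc) and 5.67% (gdf3) of the mean signal in mock embryos of 1 hpf.

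**Figure D1:**
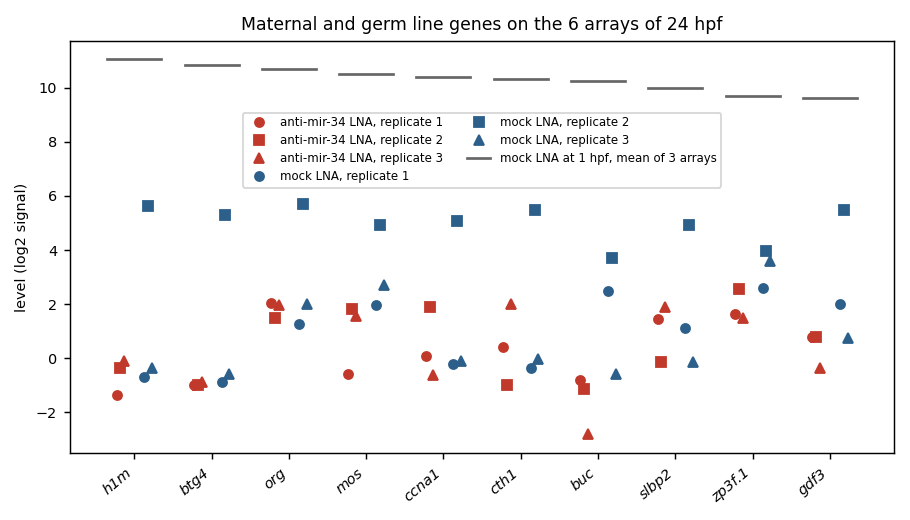
Level (log2 signal) of the 10 maternal genes with the highest mean in mock embryos of 1 hpf on each of the 6 arrays of 24 hpf, with anti-mir-34 arrays in red to the left and mock arrays in blue to the right of each gene. The grey bar is the mean of the 3 mock arrays of 1 hpf, and the square of mock replicate 2 is the highest point of 24 hpf for every gene, for example 5.62 for h1m where the other 5 arrays lie below 0.

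These genes bear on the comparison itself. Their median difference was -0.91 with all arrays and -0.22 without mock replicate 2, against medians of 0.0195 and 0.0116 over all genes. None of the 41 was called in either fit, while 1 was nominally higher and 14 nominally lower with all arrays, and 1 higher and 8 lower without mock replicate 2. Over all 8793 genes 0 were called with all arrays and 1 without mock replicate 2. Of all genes 2.37% were nominally higher and 2.02% nominally lower, and 1.92% and 1.34% without that array. buc, which organizes the Balbiani body of the oocyte, had levels of -0.79, -1.16 and -2.82 in anti-mir-34 embryos, against 2.48, 3.71 and -0.58 in mock embryos. The groups did not overlap for buc, and mock replicate 1 was high as well as replicate 2. Its difference was -3.46 (SE 0.75, adjusted p = 0.427), and -2.54 without mock replicate 2 (adjusted p = 1). With mock replicate 3, the low mock array, left out in its place buc was called lower, at -4.68 (adjusted p = 0.00322). The fit pools the spread over all ages. The SD of buc at the age compared was 1.08 in anti-mir-34 embryos and 2.21 in mock embryos. In mock embryos of 1 hpf it was 0.25. For egg messages such as buc the p-values may therefore be too small. ybx1, an RNA-binding protein gene that is maternal but stays on in the embryo, had a bright level of 9.66 ± 0.12 in anti-mir-34 embryos and 9.77 ± 0.16 in mock embryos (SD, n = 3 each). The results below rest on all 6 arrays. Calls, and most of the counts and differences that move with it, are also given without mock replicate 2, which leaves 2 mock arrays.

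With all arrays 2 of 15502 probe sets were called (0.0129%), both higher in anti-mir-34 embryos and neither of them bright. Once mock replicate 2 was left out, again 2 were called (0.0129%), both higher, and 1 was shared with the first fit, which is 50% of each. No probe set was called lower in either fit. Nominal differences numbered 686 with all arrays (4.43%), of which 341 were higher (2.2%) and 345 lower (2.23%). In the fit without mock replicate 2 they numbered 489 (3.15%), of which 267 were higher (1.72%) and 222 lower (1.43%). If no gene differed, about 775 nominal differences (5%) would arise from the number of tests. The 2 fits shared 149 of the nominally higher probe sets, which is 43.7% and 55.8% of the lists with and without mock replicate 2, and 148 of the nominally lower ones, which is 42.9% and 66.7%. The values of the 3 anti-mir-34 arrays did not overlap those of the 3 mock arrays for 1423 probe sets (9.18%), 752 of them higher and 671 lower, and 2558 (16.5%) separated the 3 anti-mir-34 arrays from the 2 mock arrays left without replicate 2. Groups this small often separate where nothing differs, so a lack of overlap in a single gene is no evidence of a difference by itself.

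The calls turned on other arrays too. With mock replicate 1 left out in its place, 13 probe sets were called, 10 higher and 3 lower, among them gtf3ab at -3.61 (adjusted p = 0.0397). With anti-mir-34 replicate 2 or replicate 3 left out, the count was 0 in each case, with 568 and 632 nominal differences. With only the 6 arrays of 24 hpf in the fit, limma called 0 probe sets, with 637 nominal differences.

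The intervals bound what the 6 arrays could have missed. For the 3407 probe sets with a mean level of 6 or more at 24 hpf, the 95% interval of the difference reached a median of 0.611 to either side, a factor of 1.53. Of these, 2548 (74.8%) had an interval that lay wholly within a 2-fold difference in either direction, and 2340 (68.7%) without mock replicate 2. The spread in this fit was pooled over the 3 ages. From the 6 arrays of 24 hpf alone the median reach was 0.408, a factor of 1.33, and 3255 (95.5%) of the intervals lay within 2-fold. Only 1 of the 3407 differed by more than 2-fold between the group means, the tumour suppressor gene rb1, and 4 did so without mock replicate 2. For the 4718 probe sets with a mean level below 2 the median reach was 1.76, a factor of 3.39, and 1261 of them (26.7%) had group means more than 2-fold apart. Differences of up to 2-fold in dim genes were thus not detectable with these arrays.

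**Figure D2:**
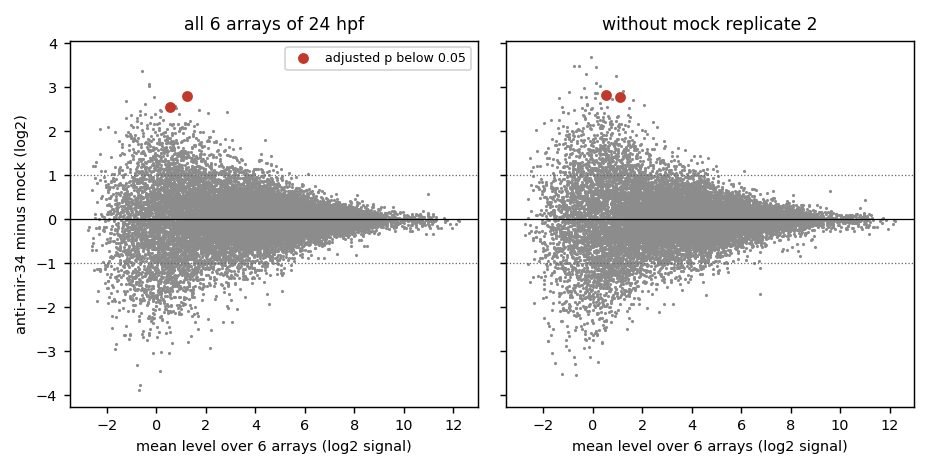
Difference between anti-mir-34 and mock embryos of 24 hpf (log2) against the mean level over the 6 arrays (log2 signal), 1 point per probe set, with all arrays on the left and without mock replicate 2 on the right. Red points are the 2 called probe sets of each fit, all at mean levels below 2, dotted lines mark 2-fold, and the spread narrows from dim to bright probe sets.

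The called probe sets were dim at this age. A probe set of cdpf1, a gene for a small cysteine-rich protein, had levels of 2.54, 2.92 and 2.45 in anti-mir-34 embryos, against -0.80, 0.08 and 0.25 in mock embryos. All anti-mir-34 arrays lay above all mock arrays. The difference was 2.79 (SE 0.44, adjusted p = 0.0314), and 2.91 without mock replicate 2 (adjusted p = 0.0543). This probe set was named after its values were seen, since another stands for the gene. That other cdpf1 probe set averaged 4.52 in both groups, and the third one 4.49 in anti-mir-34 embryos and 3.63 in mock embryos, a nominal difference of 0.86 (adjusted p = 0.999). The called probe set was brighter earlier, with a mean level of 5.99 in anti-mir-34 embryos and 5.47 in mock embryos of 1 hpf.

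The second called probe set has no gene symbol in the annotation used here and was likewise singled out after its values were seen. It had levels of 1.59, 2.26 and 1.63 in anti-mir-34 embryos, against -0.35, -0.15 and -1.65 in mock embryos. The groups stood clear of each other on every array. The difference was 2.54 (SE 0.41, adjusted p = 0.0314), and 2.83 without mock replicate 2 (adjusted p = 0.021), so it was the probe set called in both fits. It too was brighter at 1 hpf, at 6.89 in anti-mir-34 embryos and 6.62 in mock embryos.

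Without mock replicate 2 the other call was arih1l, a gene of the ariadne family of ubiquitin ligases. Its levels were 1.77, 2.39 and 2.06 in anti-mir-34 embryos, against -1.16, 1.75 and -0.28 in mock embryos. Mock replicate 2 lay just under the lowest anti-mir-34 array, and the other mock arrays far below it. The difference was 2.79 without that array (adjusted p = 0.0141) and 1.97 with it (adjusted p = 0.657). The second arih1l probe set ran the other way, with a mean level of -0.16 in anti-mir-34 embryos and 1.05 in mock embryos. On a scale that adds 16 to every signal before the logarithm, which shrinks differences among dim values, the differences were 0.39 for cdpf1, 0.23 for the unnamed probe set and 0.28 for arih1l without mock replicate 2, and none of them was called.

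The genes that came next by p were not called. Among the higher ones, gemin5, which recognizes small nuclear RNAs for the SMN complex, had levels of 4.01, 4.11 and 4.24 in anti-mir-34 embryos, against 2.72, 3.35 and 2.26 in mock embryos. The groups did not overlap, and the difference was 1.34 (adjusted p = 0.486) with all arrays and 1.63 (adjusted p = 0.158) without mock replicate 2. The other gemin5 probe sets differed by -1.29 and 0.24. mios, a subunit of the GATOR2 complex that relays amino acid supply to mTORC1, had levels of 5.43, 4.71 and 5.16 in anti-mir-34 embryos, against 4.36, 3.45 and 4.21 in mock embryos. The groups did not overlap here either, and the difference was 1.09 (adjusted p = 0.653), or 0.81 without mock replicate 2 (adjusted p = 1). ciz1b differed by 2.42, the mitochondrial phenylalanyl-tRNA synthetase gene fars2 by 2.17 and the D-lactate dehydrogenase gene ldhd by 2.46, each with an adjusted p of 0.574 and each with a mock mean below 1. fars2 was called when mock replicate 1 was left out, at 2.73 (adjusted p = 0.0474). The other fars2 probe set ran the other way, at -0.75 with all arrays and -0.94 without mock replicate 2.

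Among the lower ones mock replicate 2 was the highest array for each of the 5 with the smallest p. They were buc, gtf3ab, larp6b, ghdc and zgc:112285. gtf3ab, a gene for the 5S rRNA factor TFIIIA, had levels of -0.17, -1.61 and -0.55 in anti-mir-34 embryos, against 0.47, 4.43 and 1.25 in mock embryos. Its difference was -2.82 with all arrays (adjusted p = 0.574) and -1.63 without that array (adjusted p = 1). A second gtf3ab probe set differed by -3.04 (adjusted p = 0.174), and by -2.13 without that array. gtf3ab is itself an egg message, with a mean level of 10.1 in anti-mir-34 embryos and 9.96 in mock embryos of 1 hpf. larp6b, of a family of RNA-binding proteins, had levels of -0.38, 1.25 and 0.43 in anti-mir-34 embryos, against 2.06, 4.35 and 2.39 in mock embryos. Its difference was -2.50 (adjusted p = 0.594), and -1.79 without mock replicate 2 (adjusted p = 1). Of the 345 nominally lower probe sets 40 (11.6%) had a level of 8 or more in mock embryos of 1 hpf, against 4 (1.17%) of the 341 nominally higher ones and 4.66% of all. Without mock replicate 2 the lower ones with such a level were 15 of 222 (6.76%).

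**Figure D3:**
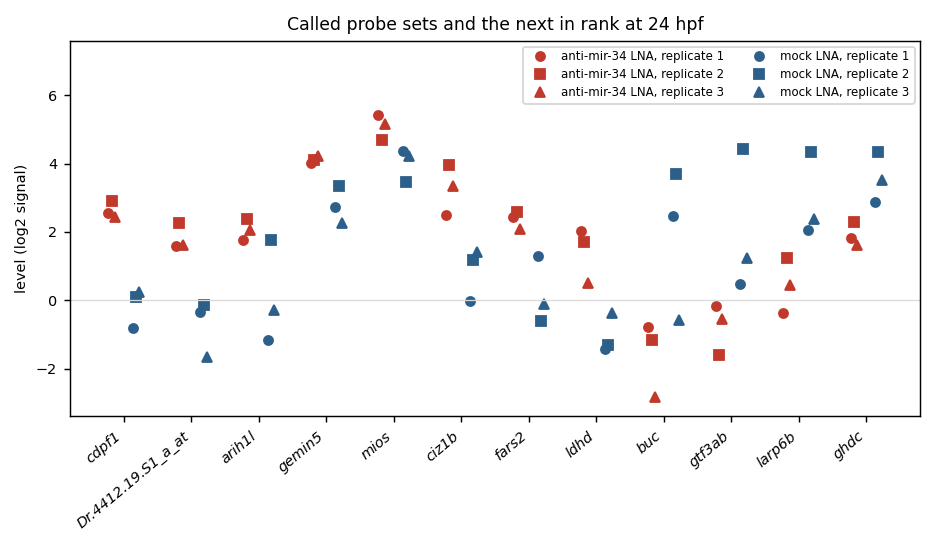
Level (log2 signal) on each of the 6 arrays of 24 hpf for the 3 probe sets called in either fit (leftmost, the unnamed one under its array identifier), the next higher ones and the 4 lower genes of smallest p with levels above -3 on all arrays, anti-mir-34 in red to the left and mock in blue to the right of each gene. The higher ones separate the groups on levels mostly below 5, and the mock replicate 2 square tops each of the lower genes, as in gtf3ab at 4.43.

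Among bright genes the differences were small. Of the 3407 probe sets at a mean level of 6 or more, 10 were nominally different with all arrays (0.294%), 5 higher and 5 lower, and 4 without mock replicate 2 (0.117%). If no gene differed, 5% would be nominal, so the p-values of bright probe sets are cautious here. Their median SE was 0.293 with the spread pooled over the 3 ages and 0.187 from the 6 arrays of 24 hpf alone. The small count is therefore weak evidence that bright genes were unchanged. The genes named here were chosen after their values were seen. nop58, a core protein of the box C/D particles that methylate ribosomal RNA, had levels of 8.22, 8.39 and 8.55 in anti-mir-34 embryos, against 7.88, 7.79 and 7.80 in mock embryos. The groups did not overlap, and the difference was 0.56 (SE 0.17, adjusted p = 0.77), or 0.54 without mock replicate 2 (adjusted p = 1). rb1, the retinoblastoma gene that restrains entry into S phase, had levels of 6.80, 6.58 and 6.49 in anti-mir-34 embryos, against 6.57, 5.71 and 4.5 in mock embryos. The groups overlapped, and mock replicate 3 lay lowest. Its difference was 1.03 (adjusted p = 0.999). Among the nominally lower ones a probe set of hmgn1a differed by -0.82 and one of thoc3 by -0.57 (adjusted p = 0.999 each). The groups did not overlap in either, and without mock replicate 2 the differences were -0.84 and -0.52. For nop58 and hmgn1a there is 1 other probe set each, whose values are not given here.

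The genes through which miR-34 is reported to act, mostly in mammals, were taken as a list of 55 measured genes, of which 27 stand in another list too. None was called in either fit, and of all 8793 genes 0 were called with all arrays and 1 without mock replicate 2. With all arrays 0 were nominally higher and 1 was nominally lower, and without mock replicate 2 there were 0 in either direction, against 2.37% and 2.02% of all genes with all arrays. A level of 6 or more was held by 24 of the targets, and only 0.294% of all probe sets at that level were nominal in either direction. The shares over all genes come mostly from dimmer ones, so this count does not show that targets responded less than other genes. The median difference was 0.0401, and 0.0413 without mock replicate 2, beside 0.0195 and 0.0116 over all genes. Of the 55, 34 lay above 0, against 4604 of all 8793 genes. The list's median level was 5.31, 5.25 and 5.58 on the anti-mir-34 arrays, against 5.56, 5.18 and 5.41 on the mock arrays, and these ranges overlap. For 21 of the 55 the 95% interval lay within 2-fold, and for 19 without mock replicate 2, so for the others a 2-fold difference remained inside the interval.

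Among the cell cycle targets ccnd1 and e2f3 were bright and ccne1 and birc5b were not. ccnd1, the G1 cyclin, had levels of 9.16, 9.12 and 9.32 in anti-mir-34 embryos, against 9.03, 9.26 and 9.05 in mock embryos. Its difference was 0.08 with an interval of -1.0 to 1.17, wide because the spread is pooled over the 3 ages. The factor of S phase entry e2f3 had levels of 7.04, 6.60 and 6.95 in anti-mir-34 embryos, against 6.98, 6.77 and 6.67 in mock embryos, a difference of 0.06 with an interval of -0.79 to 0.90. ccne1, the cyclin of the G1 to S step, averaged 4.80 ± 0.46 in anti-mir-34 embryos and 4.42 ± 0.54 in mock embryos (SD, n = 3 each). In each of these 3 genes the groups overlapped. birc5b, a survivin gene for the chromosomal passenger complex, was the single nominal member and ran lower. It had dim levels of -1.60, 0.72 and 1.15 in anti-mir-34 embryos, against 2.33, 3.57 and 0.19 in mock embryos. Its difference was -1.94 (SE 0.67, adjusted p = 0.944), and -1.17 without mock replicate 2, and its level in mock embryos of 1 hpf was 10.1. For birc5b the pooled spread was smaller than the spread at the age compared. The SD there was 1.48 in anti-mir-34 embryos and 1.71 in mock embryos, against 0.33 in mock embryos of 1 hpf. The interval of birc5b may thus be too narrow, and its nominal p too small. The bright paralog birc5a differed by -0.15 with an interval of -0.71 to 0.41.

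The Myc genes encode transcription factors that promote growth and gave 4 members. mycb had levels of 5.31, 4.97 and 5.33 in anti-mir-34 embryos, against 5.09, 3.87 and 5.24 in mock embryos. Its difference was 0.47 with all arrays and 0.03 without mock replicate 2, the one low array. mycn, which marks dividing neural tissue, averaged 7.33 ± 0.73 in anti-mir-34 embryos and 7.72 ± 0.17 in mock embryos (SD, n = 3 each). myca differed by 0.34 and mych by 0.07, and the intervals of all 4 included 0.

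Notch receptors and their ligands were on the list as well. notch1a had levels of 6.64, 5.70 and 6.44 in anti-mir-34 embryos, against 6.58, 6.93 and 6.82 in mock embryos, with anti-mir-34 replicate 2 lowest. Its difference was -0.52 with an interval of -1.26 to 0.22. notch2 differed by -0.34 with an interval of -1.08 to 0.40. The ligand genes jag1a and jag1b differed by 0.12 and 0.39, and by -0.12 and -0.08 without mock replicate 2, with intervals around 0 in both fits. Among Wnt members ctnnb1, the beta-catenin gene, differed by 0.00 with an interval of -0.49 to 0.49. The feedback inhibitor axin2 differed by 0.02 with an interval of -0.62 to 0.65, and the nuclear partner lef1 by 0.02 with an interval of -0.67 to 0.71.

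Regulators around p53 and of cell fate completed the list. mdm4, an inhibitor of p53, differed by 0.04 with an interval of -0.54 to 0.62, and the deacetylase gene sirt6 by 0.04 with an interval of -0.75 to 0.83. hdac1, a histone deacetylase, averaged 8.90 ± 0.06 in anti-mir-34 embryos and 8.88 ± 0.05 in mock embryos (SD, n = 3 each). sox2, the neural progenitor factor, had levels of 7.53, 6.94 and 7.23 in anti-mir-34 embryos, against 7.28, 6.87 and 6.87 in mock embryos, and its difference of 0.22 had an interval of -0.62 to 1.07. nanog, a maternal factor of genome activation, differed by -0.95 with all arrays and by 0.03 without mock replicate 2, where its level was 4.26. After birc5b the smallest p belonged to acsl4a, a fatty acid ligase gene. It had levels of 4.54, 5.18 and 4.40 in anti-mir-34 embryos, against 4.16, 3.77 and 4.08 in mock embryos. The groups did not overlap, and its difference was 0.70 (adjusted p = 0.999), or 0.59 without mock replicate 2.

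**Figure D4:**
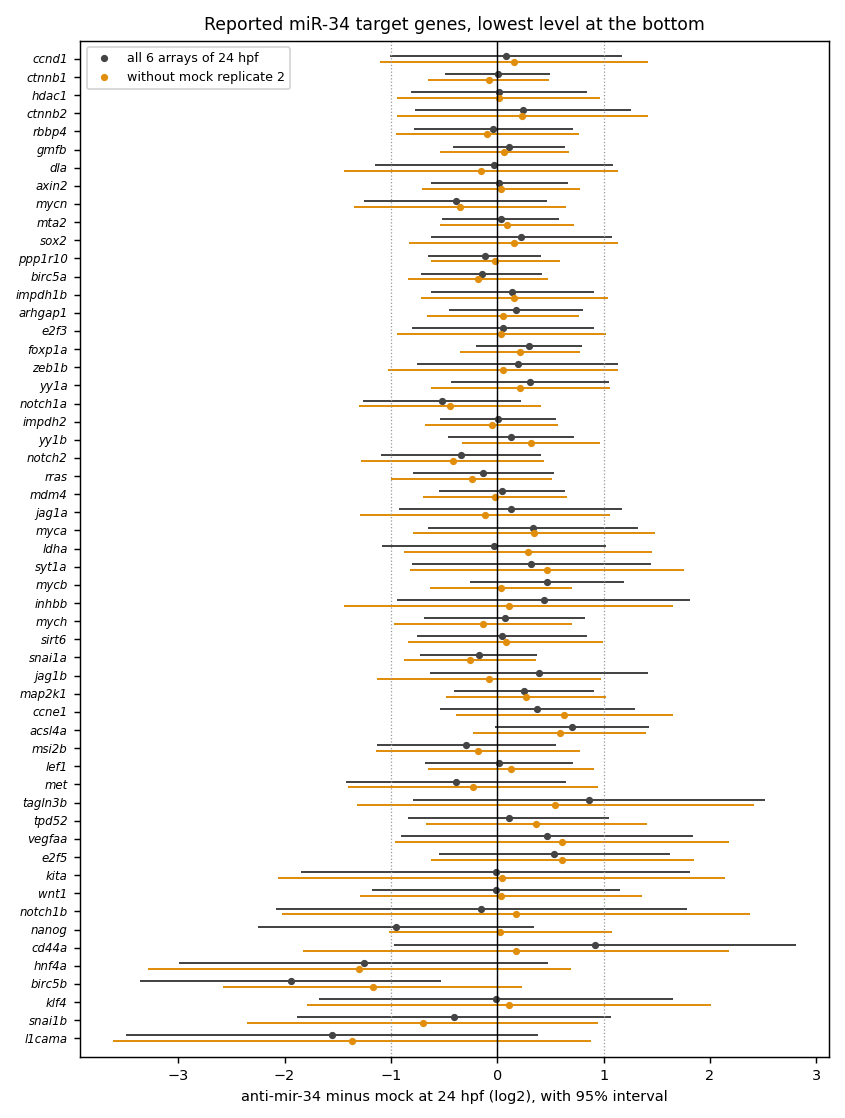
Difference between anti-mir-34 and mock embryos of 24 hpf (log2) with its 95% interval for the 55 reported miR-34 targets, ordered by mean level in anti-mir-34 embryos with the lowest at the bottom. Grey is the fit with all 6 arrays of that age, orange the fit without mock replicate 2 and dotted lines mark 2-fold, and only the grey interval of birc5b leaves out 0. That interval rests on a spread pooled over all ages, which for birc5b is smaller than the spread within either group shown.

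The genes that p53 and cell death turn on formed a list of 47, with 3 nominally higher (6.38%, against 2.37% of all genes) and 0 lower, and 2 (4.26%, against 1.92%) and 0 without mock replicate 2. The list's median difference was 0.0208 and turned to -0.0221 without that array. The 3 were dim. tnfrsf1a, a receptor for tumour necrosis factor, had levels of 0.58, 0.24 and 1.71 in anti-mir-34 embryos, against -1.94, -1.40 and -1.94 in mock embryos (difference 2.61, adjusted p = 0.852). gadd45bb, a growth arrest gene, differed by 1.80 with overlapping groups, and tigarb, a regulator of glycolysis, by 1.44. The brighter p53 targets lay close together. ccng1, the cyclin G1 gene, averaged 8.76 ± 0.015 in anti-mir-34 embryos and 8.85 ± 0.147 in mock embryos (SD, n = 3 each), and the interval of its difference ran from -0.51 to 0.34. mdm2, which p53 induces and which degrades it, differed by -0.27 with an interval of -0.89 to 0.36.

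Growth and housekeeping lists were the most precisely measured. All 71 cytosolic ribosomal protein genes lay at a level of 6 or more, 0 were nominal in either fit, and 69 intervals lay within 2-fold. Their median level was 10.7 ± 0.0143 in anti-mir-34 embryos and 10.7 ± 0.0241 in mock embryos (SD, n = 3 each). Of 65 genes of mitochondrial respiration 0 were nominal and 62 intervals lay within 2-fold. Of 81 cell cycle genes 1 was nominally higher (rb1) and 1 lower (birc5b), each 1.23%, against 2.37% and 2.02% of all genes. A level of 6 or more was held by 62 of the 81, and only 0.294% of all probe sets at that level were nominal. The shares over all genes are thus no like measure for this list. Without mock replicate 2 there were 1 and 0. With all arrays 62 intervals lay within 2-fold. pcna, the sliding clamp of DNA replication, had levels of 10.17, 10.17 and 10.31 in anti-mir-34 embryos, against 10.22, 10.18 and 10.28 in mock embryos. Its difference was -0.01 with an interval of -0.35 to 0.33. Of 26 genes used as loading controls 0 were nominal. A level of 6 or more was held by 19 of these and by 62 of the respiration genes. At that level only 0.294% of all probe sets were nominal, so counts of 0 say little. The stress response list, with 69 genes, had 1 nominally higher (igfbp1b, 1.40) and 1 lower (fkbp5, -1.11), each 1.45%. Without mock replicate 2 there were 0 and 1, and igfbp1b differed by 1.03.

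The embryos of both groups carried the messages of differentiated tissues. The muscle list of 72 genes had a median level of 7.49, 7.89 and 7.63 on the anti-mir-34 arrays, against 7.51, 7.94 and 7.84 on the mock arrays, and of 1.88 ± 0.153 in mock embryos of 1 hpf (SD, n = 3). In RNA from whole embryos fewer cells of a type and less RNA per cell cannot be told apart. actc1b, the skeletal muscle actin gene, had levels of 11.99, 11.99 and 12.21 in anti-mir-34 embryos, against 12.21, 12.21 and 12.12 in mock embryos. The creatine kinase gene ckmb averaged 10.37 ± 0.16 in anti-mir-34 embryos and 10.40 ± 0.23 in mock embryos (SD, n = 3 each). In the muscle list 0 genes were nominally higher and 1 lower (1.39%, against 2.02% of all genes), desmb, a dim desmin gene. Of the 72 genes 50 had a level of 6 or more, where only 0.294% of all probe sets were nominal in either direction. The median difference was -0.0706.

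The nervous system lists were close as well. The 77 neuron genes had a median level of 4.84, 5.02 and 5.36 on the anti-mir-34 arrays, against 4.74, 5.23 and 5.11 on the mock arrays. Of these, 0 were nominally higher and 1 lower (1.3%, against 2.02% of all genes), sncgb, a synuclein gene. sncgb had levels of 3.22, 3.15 and 2.42 in anti-mir-34 embryos, against 3.19, 4.72 and 4.77 in mock embryos, and its difference was -1.30 (adjusted p = 0.919). tubb2b, a tubulin gene of this list, averaged 10.26 ± 0.05 in anti-mir-34 embryos and 10.28 ± 0.18 in mock embryos (SD, n = 3 each). In mock embryos of 1 hpf it already averaged 9.13, where the neuron list had a median level of 1.8. Its level therefore does not stand for neurons alone. The 70 neural progenitor genes had a median level of 5.53, 5.23 and 5.63 on the anti-mir-34 arrays, against 5.37, 5.19 and 5.03 on the mock arrays. The groups overlapped, 46 of the 70 differences lay above 0, against 4604 of 8793 over all genes, and the median was 0.132. Of the 70, 0 were nominal, against 2.37% higher and 2.02% lower of all genes. A level of 6 or more, where nominal differences were rare, was held by 28 of them. Of 18 glia genes 1 was nominally higher (5.56%, against 2.37% of all genes), ptgdsb.2, a dim gene of the lipocalin prostaglandin synthase family (2.39, adjusted p = 0.796). Without mock replicate 2 no glia gene differed by more than 1.61, and 1 was nominally higher (5.56%, against 1.92% of all genes). Of 36 eye genes 1 was nominally higher (2.78%), six6a, an optic field homeobox gene. six6a had levels of 3.17, 3.1 and 3.29 in anti-mir-34 embryos, against 2.76, 0.37 and 1.16 in mock embryos. The groups did not overlap, and its difference was 1.76 (adjusted p = 0.999). Without mock replicate 2, its lowest array, the difference was 1.23, and 0 eye genes were nominal.

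Blood, vessel and heart lists gave no nominal member in either fit, over 38, 22 and 27 genes. Of all genes 2.37% were nominally higher and 2.02% lower with all arrays. In lists of this size 0 can arise at such shares, so the counts do not show that these tissues were unchanged. hbae3, an embryonic globin gene, had levels of 10.30, 10.58 and 9.54 in anti-mir-34 embryos, against 10.37, 10.31 and 10.30 in mock embryos. The third anti-mir-34 array was the low one, and it was low for some other lists too. It was not low throughout, since its list median was the highest of the 6 arrays for neurons (5.36), neural progenitors (5.63) and glia (6.13). The 59 yolk and liver genes had a median level of 4.69, 4.60 and 2.98 on the anti-mir-34 arrays, against 4.78, 3.71 and 4.35 on the mock arrays. apoa1a, the main apolipoprotein of the yolk layer, had levels of 9.77, 9.26 and 7.42 in anti-mir-34 embryos, against 9.74, 8.50 and 9.18 in mock embryos. The yolk and liver list had a median difference of -0.121, and -0.363 without mock replicate 2. With all arrays 0 of its genes were nominally higher and 1 lower (1.69%, against 2.02% of all genes), hpxa, hemopexin. The 8 hatching gland genes had a median level of 4.07, 3.57 and 1.87 on the anti-mir-34 arrays, against 3.12, 2.82 and 3.22 on the mock arrays. Whether the amount of yolk taken with the embryos differed between arrays was not tested.

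The 65 genes of epidermis and periderm had 1 nominally higher (1.54%, against 2.37% of all genes) and 0 lower. The 1 higher was klf3, at 1.12. Without mock replicate 2 there were 0 of either, and klf3 differed by 0.88. krt4, the most abundant keratin of the periderm, averaged 10.72 ± 0.14 in anti-mir-34 embryos and 11.06 ± 0.25 in mock embryos (SD, n = 3 each). The lists of neural crest and pigment (33 genes), pronephros and ear (32) and skeleton, cartilage and notochord (40) had 0 with all arrays. Of all genes 2.37% were higher and 2.02% lower, and lists this short can hold 0 at such shares. Without mock replicate 2 the last had 1 higher (2.5%, against 1.92% of all genes), the hedgehog ligand gene ihhb at 2.98. The skeleton list was the one whose array medians did not overlap, at 6.19, 5.91 and 6.26 in anti-mir-34 embryos, against 6.27, 6.30 and 6.48 in mock embryos, and its median difference was -0.00521. The innate immunity list of 40 genes had 0 higher and 3 lower (7.5%, against 2.02% of all genes), and 0 and 2 (5%, against 1.34%) without mock replicate 2. Only 1 of the 40 had a level of 6 or more, against 2557 of all 8793 genes. Bright genes were seldom nominal, so the shares over all genes are no like measure for so dim a list. The lowest p of the 3 lower genes belonged to ctss2.1, a cathepsin S gene of macrophages. ctss2.1 had levels of 5.31, 4.94 and 2.49 in anti-mir-34 embryos, against 5.74, 6.71 and 5.21 in mock embryos. Anti-mir-34 replicate 3 was again the low array, and the difference was -1.64 (adjusted p = 0.77). ctss2.1 was also bright in the egg, at 11.2 in mock embryos of 1 hpf, and the second mock array was the highest of 24 hpf.

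Among lists of patterning, the 42 hox genes had 0 nominally higher and 1 lower (2.38%, against 2.02% of all genes), hoxa11a at -1.59. The 34 genes of the Notch pathway had 1 higher (2.94%, against 2.37% of all genes) and 0 lower. The 1 higher was her7, a clock gene of the somites, whose difference of 1.65 was 0.90, and no longer nominal, without mock replicate 2. The 59 genes of Wnt, Fgf and Hedgehog signals had 2 higher (3.39%) and 1 lower (1.69%), against 2.37% and 2.02% of all genes. Without mock replicate 2 they had 3 (5.08%) and 2 (3.39%), against 1.92% and 1.34%. sfrp1a, a secreted Wnt antagonist, had levels of 5.91, 3.21 and 5.50 in anti-mir-34 embryos, against 5.99, 5.94 and 6.17 in mock embryos, with anti-mir-34 replicate 2 far below the rest. The 63 genes of gastrula patterning had 1 higher (1.59%) and 2 lower (3.17%), or 1 and 1 (1.59% each) without mock replicate 2. The 49 genes of cilia had 3 higher (6.12%, against 2.37% of all genes) and 1 lower, or 0 and 1 without that array. Only 7 of the 49 had a level of 6 or more, so the share over all genes is no like measure for this dim list. No member of any of the 28 lists was called at 24 hpf in either fit. Over all 8793 genes 0 were called with all arrays and 1 (0.0114%) without mock replicate 2. The lists could thus hold no call with all arrays, and their lack of calls says nothing about their genes.

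**Figure D5:**
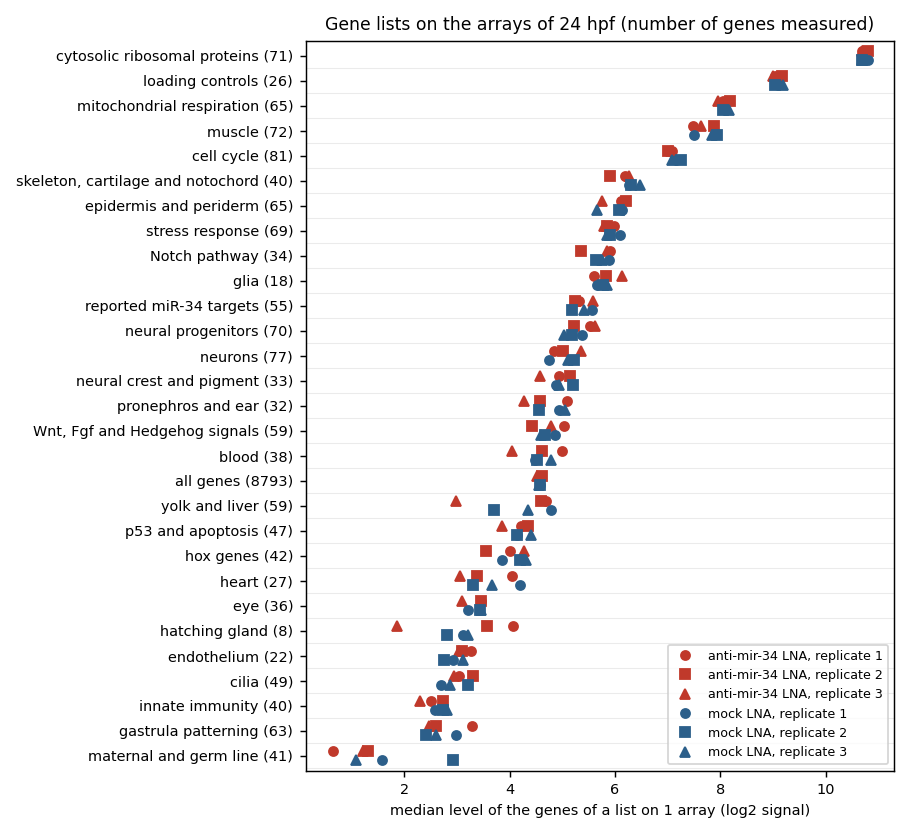
Median level (log2 signal) of the genes of each list on each of the 6 arrays of 24 hpf, lists ordered by their mean in mock embryos, anti-mir-34 arrays in red above and mock arrays in blue below. The groups overlap in most lists, with the skeleton list apart and the cell cycle list touching at 7.08, mock replicate 2 stands to the right in the maternal and germ line list at 2.93, and anti-mir-34 replicate 3 to the left in the yolk and liver list at 2.98.

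The difference at 24 hpf was set against the same difference at the earlier ages, where other arrays carry it. At 1 hpf 191 of 15502 probe sets were called (1.23%), and at 7 hpf 2 (0.0129%). The 66 called higher at 1 hpf (0.426%) had a median difference of 1.51 there and of 0.0182 at 24 hpf, where 35 lay on the same side. The 125 called lower at 1 hpf (0.806%) had a median difference of -1.66 there and of -0.00213 at 24 hpf, where 66 lay on the same side. None of the 191 was called at 24 hpf, and 0 were nominal in the same direction, while 1 of the 66 was nominal in the opposite one. At 24 hpf these probe sets were not dim, with median levels of 6.41 and 6.65. Of all probe sets only 0.0129% were called at 24 hpf, and of those at a level of 6 or more only 0.294% were nominal. The counts among the 191 therefore do not show that the differences of 1 hpf were gone.

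ddx21, an RNA helicase of the nucleolus, averaged 7.44 in anti-mir-34 embryos and 7.64 in mock embryos at 24 hpf. At 1 hpf it averaged 6.18 in anti-mir-34 embryos and 8.15 in mock embryos. Its difference was thus -0.20 at 24 hpf and -1.97 at 1 hpf (adjusted p = 0.000151). The change between the ages was 1.77 (adjusted p = 0.0548), the smallest p of that test. malsu1, an assembly factor of the mitochondrial ribosome, differed by -0.15 at 24 hpf and -3.05 at 1 hpf, with the same adjusted p of 0.0548 for the change. hmg20b, a chromatin protein of the CoREST complex, differed by -0.11 at 24 hpf and 1.47 at 1 hpf (adjusted p = 0.0908 for the change).

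The test of the change itself called 0 probe sets in limma against 1 hpf, with 1148 nominal (7.41%), and 0 against 7 hpf, with 1333 nominal (8.6%). Leaving out mock replicate 2 gave 0 calls in both, with 957 (6.17%) and 1171 (7.55%) nominal. Against 7 hpf the smallest adjusted p was 0.0611, that of the called cdpf1 probe set. cdpf1 differed by 2.79 at 24 hpf and by -1.14 at 7 hpf (adjusted p = 0.314). No difference was therefore shown to be particular to 24 hpf at the adjusted threshold.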

How the data were processed

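RNA was measured on Affymetrix arrays. The deposited values are log2 signals, 1 per probe set and array, and GCOS is the tool that the submitters' processing notes list. How probes were summarized and arrays normalized is not given in these sources. The sorted values are nearly equal on all 18 arrays, so levels are relative to the whole array. There are no detection calls, and the number of arrays limits the precision. Of the probe sets 10795 had 1 gene symbol, 135 several and 4572 none; 131 values were missing.

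Here limma 3.58.1 in R 4.3.3 fitted 6 group means to the 18 arrays (12 residual degrees of freedom, intensity trend), or to 17 without mock replicate 2. Simulated data with known differences were used to test the code. Genes to be named were the called ones (the 10 largest differences a direction in either fit), otherwise the 5 smallest p a direction, the 2 smallest p of each list and 6 of the miR-34 targets, and the 10 brightest maternal genes; other list members were added for their role or brightness, after their values were seen. One probe set, that of the highest mean, stands for a gene. Same-numbered arrays of 24 hpf were not treated as pairs, since their deviations from the group means did not correlate above 0.1. The lists and tests were chosen with earlier results of these data known. Alternatives changed the arrays, the trend, the scale, a filter on dim probe sets, the normalization, array weights and a replicate block.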

Additional observations from a re-analysis of the deposited data

How the results depend on the processing

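With all arrays 2 probe sets were called. The count was 0 with only the arrays of 24 hpf and 0 without an intensity trend, 1 with a filter at a mean level of 4 and 5 with a replicate block. It lay between 0 and 13 with 1 array of 24 hpf left out in turn. Without mock replicate 2, again 2 were called. That count was 0 with only the arrays of 24 hpf, 1 without a trend, 1 with 16 added to the signals, 1 with the filter, 1 with the replicate block and 0 to 14 with a further array left out, the 14 without mock replicate 1 as well. The change against 7 hpf had 0 calls and 47 with array weights. The change against 1 hpf had 0 calls, but 1 without a trend, 7 with the filter, 1 after quantile normalization, 12 with array weights and 17 with the replicate block. Quantile normalization, array weights and leaving out probe sets with missing values kept the count with all arrays at 2. The sorted values were nearly equal beforehand and only 115 probe sets lacked a value, so the first and the last of these could change little. The cause of these changes was not tested. Among differences of single genes 643 of the values under an alternative kept their direction and their side of the threshold, 43 moved by more than the replicate spread, 29 were no longer past the threshold, 9 came past it and 1 reversed. The reversed one was arih1l without mock replicate 2, at -0.81 in its other probe set. Same-numbered arrays of 24 hpf did not deviate together (Pearson's r of 0.0147, 0.0218 and 0.0149 over probe sets). At 1 hpf r was 0.0311 to 0.139 and at 7 hpf 0.0621 to 0.277. Each array correlated best with its own number, apart from mock replicate 1 at 1 hpf, which is a hint from the data and not from the design; r was not above 0.1 for every pair, so the numbers were not taken as pairs. The replicate block called buc (adjusted p = 0.00381 with all arrays, 0.0131 without mock replicate 2) and, with all arrays, larp6b and the second gtf3ab probe set (adjusted p = 0.0405 each), all lower. Signals without detection calls leave it unknown which dim probe sets were above background.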

Other observations

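On the scale with 16 added to the signals, anos1b was called, which it was not on the deposited scale, and it was noticed for that reason. That scale called 1 other probe set with all arrays, which has no gene symbol and was lower, at -1.15 (adjusted p = 0.0431). It was not called there without mock replicate 2, and on the deposited scale it was called without mock replicate 1, at -2.27 (adjusted p = 0.0294). anos1b encodes anosmin, a matrix protein known for its part in olfactory and reproductive neuron development. At 24 hpf it had levels of 3.88, 4.26 and 4.47 in anti-mir-34 embryos, against 2.76, 2.2 and 2.78 in mock embryos, and the groups did not overlap. The difference was 1.62 as deposited (adjusted p = 0.999) and 0.65 with 16 added (adjusted p = 0.00118). Without mock replicate 2 these were 1.43 (adjusted p = 1) and 0.60 (adjusted p = 0.0194). At 7 hpf, on separate arrays, it had levels of 0.97, 0.58 and 0.40 in anti-mir-34 embryos, against -0.70, -1.10 and -1.40 in mock embryos, a difference of 1.72 as deposited (adjusted p = 0.261). All of these levels lie below 1, where adding 16 to the signals leaves little of a difference. The 7 hpf values are not given on the scale that called anos1b, so they are no repeat of that call. At 1 hpf the difference was -0.03, and every level lay below 1 there too. The fit pools the spread over all ages, and with 16 added these early levels bring little spread. The adjusted p-values of anos1b on that scale may therefore be too small. Only 1 probe set measures anos1b, and it was picked out of all probe sets after its values were seen.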
